A study of Homo sapiens with 12 samples.

Results

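The miR-17-92 and miR-106b-25 clusters are related families of human miRNAs, and their 9 guide-strand members were taken by name from the 851 miRNAs of the deposited table. The miR-17-92 cluster gave 6 members, hsa-miR-17, hsa-miR-18a, hsa-miR-19a, hsa-miR-20a, hsa-miR-19b and hsa-miR-92a. The miR-106b-25 cluster gave 3, hsa-miR-106b, hsa-miR-93 and hsa-miR-25, and the prefix for human is left out below. Of these 9 miRNAs, 8 were detected on every one of the 12 arrays, against 100 of all 851, and miR-18a was detected on 4 arrays. By the labels of the deposited table, miR-92a was lower on day 14 of osteogenic culture than on day 0 in both cell types. miR-18a was detected on 4 Saos-2 arrays and on none of the 6 arrays of CD99 transfectants, but with the same arrays normalized again it was not called between them. None of the 8 members detected on all arrays passed the test between the cell types.

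A miRNA cluster is read out as one primary transcript, from which each hairpin is cut separately, so members of one cluster can still differ in mature level. A mature miRNA pairs with target mRNAs mainly through its seed, the bases near its 5′ end, and miRNAs with the same seed share many targets. Both clusters are known to be switched on by MYC and E2F factors in dividing cells. They are known for blunting TGF-beta signaling and for repressing brakes on growth such as CDKN1A and the proapoptotic BCL2L11.

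Total RNA came from the human osteosarcoma line Saos-2 and from Sa/CD99, which are Saos-2 cells stably transfected with CD99, a cell surface glycoprotein. The transfection used calcium phosphate and neomycin selection, and each Sa/CD99 array came from 1 of 2 clones, Sa/CD99wt22 and Sa/CD99wt36, called clones 22 and 36 below. Both cell types were sampled on day 0 under basal conditions and on days 7 and 14 in osteogenic medium. This gave 6 groups of 2 one-colour arrays. The osteogenic medium held less serum than the routine medium, so day and medium cannot be told apart between day 0 and later days. The arrays measure miRNAs, so the level of the CD99 transgene and markers of the osteoblast lineage could not be checked on them. The Saos-2 arrays carry replicate numbers 1 and 2 that the labels do not explain, so the p-values measure the spread between these arrays, which may be technical.

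The deposited table and the scanner files assign arrays to samples differently, and this decides the direction of the results below. Each of the 12 columns of the deposited table matched exactly 1 scanner array by its pattern of detected miRNAs, over all 847 shared names, and in no case was that the array filed under the same sample. All 12 scanner files were filed in the order of their file names. Why the records differ was not tested. Values here follow the labels of the table unless stated, and the opposite record is given beside the main comparison. By the labels of the table, all 4 day 0 arrays and the Saos-2 day 7 arrays lay on one slide and the other 6 arrays on the second. The slide therefore cannot be told apart from the day between day 0 and day 14 in either cell type. The same holds for day 7 against day 0 in Sa/CD99, day 14 against day 7 in Saos-2, and the cell types on day 7. The total gene signal of the 4 day 0 arrays lay between 8594 and 11371, and that of the other 8 arrays between 25232 and 62236, so day 0 and low signal cannot be told apart. The arrays detected between 133 and 158 miRNAs on day 0 and between 158 and 229 later.

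The mature sequences are shown because their seeds place the members in groups that cut across the clusters. All 9 members matched RefSeq annotation of GRCh38.p14, and capitals mark the seed, bases 2 to 8 from the 5′ end. The seed AAAGUGC is shared by 4 members, 2 from each cluster:
hsa-miR-17: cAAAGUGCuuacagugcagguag
hsa-miR-20a: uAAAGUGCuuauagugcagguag
hsa-miR-106b: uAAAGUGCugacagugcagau
hsa-miR-93: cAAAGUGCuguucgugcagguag

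The seed AUUGCAC is shared by 1 member of each cluster, miR-92a and miR-25, which differ at 4 of 22 bases, and by miR-92b, a relative encoded elsewhere that differs from miR-92a at 3 of 22 bases:
hsa-miR-92a: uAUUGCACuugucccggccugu
hsa-miR-25: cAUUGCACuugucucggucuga
hsa-miR-92b: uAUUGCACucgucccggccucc

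The remaining seeds are found in miR-17-92 and not in miR-106b-25. miR-19a and miR-19b differ at 1 of 23 bases outside the seed, and miR-18a has a seed that no other member has:
hsa-miR-19a: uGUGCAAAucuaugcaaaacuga
hsa-miR-19b: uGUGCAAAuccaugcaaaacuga
hsa-miR-18a: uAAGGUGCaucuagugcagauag

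Members this alike may share signal on an array, and cross-hybridisation was not tested. The 6 mature sequences of miR-17-92 lie on the plus strand at chr13:91350618-91351382, within MIR17HG, the noncoding host gene of the cluster at chr13:91347687-91354577. Those of miR-106b-25 lie on the minus strand at chr7:100093571-100094063, within MCM7, the gene of a replicative helicase subunit at chr7:100092728-100101397. miR-19b and miR-92a also have a second locus each on the X chromosome, at chrX:134169683-134169705 and chrX:134169544-134169565, so an array cannot tell which locus made them.

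miR-17, which represses TGFBR2 and CDKN1A, had normalized log2 values on Saos-2 replicates 1 and 2 of 5.21 and 6.11 on day 0, 4.46 and 5.29 on day 7, and 3.83 and 5.66 on day 14. On Sa/CD99 clones 22 and 36 its values were 4.97 and 4.70 on day 0, 4.31 and 4.00 on day 7, and 3.45 and 3.86 on day 14. Both Sa/CD99 arrays lay below both Saos-2 arrays on days 0 and 7, and on day 14 clone 36 lay just above Saos-2 replicate 1. miR-20a, its cluster mate with the same seed, had values in Saos-2 of 5.66 and 6.22, 4.94 and 5.66, and 4.35 and 6.00 on days 0, 7 and 14. On clones 22 and 36 it had 5.29 and 5.16, 4.75 and 4.46, and 4.28 and 4.43. It showed the same order as miR-17, with an overlap on day 14 made by the low Saos-2 replicate 1.

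miR-19a had log2 values in Saos-2 of 4.55 and 4.89 on day 0, 3.05 and 3.74 on day 7, and 2.88 and 4.31 on day 14. Clones 22 and 36 had 4.52 and 4.24, then 3.11 and 2.0, then 0.41 and 2.68. The day 14 arrays of the 2 clones differed by more than any other pair of replicates for any member detected on all arrays. miR-19b, with the same seed, had 6.35 and 6.41, 5.86 and 6.05, and 5.54 and 6.41 in Saos-2 on the 3 days. In Sa/CD99 it had 6.15 and 5.93, 5.34 and 5.16, and 4.89 and 5.12. On each day both miR-19b values of Sa/CD99 lay below both values of Saos-2, which also held for miR-19a on days 0 and 14.

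miR-92a, the last hairpin of its cluster and a repressor of integrin alpha 5, had values in Saos-2 of 8.35 and 8.35 on day 0, 6.69 and 5.86 on day 7, and 6.00 and 6.27 on day 14. Its values in Sa/CD99 were 8.09 and 7.99, then 6.62 and 6.27, then 5.37 and 5.66. All 4 day 0 values lay above all 8 later ones, as they did for 51% of the 100 miRNAs detected on all arrays. Among its 6 groups in order of mean, Saos-2 day 0, Sa/CD99 day 0 and Sa/CD99 day 7 stood apart from each other, Sa/CD99 day 7, Saos-2 day 7 and Saos-2 day 14 overlapped with their neighbours, and Sa/CD99 day 14 was lowest and apart.

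The group means of the miR-106b-25 members were also lower after day 0. miR-106b, a repressor of CDKN1A, had log2 values in Saos-2 of 5.70 and 6.00, 5.05 and 4.94, and 4.24 and 5.46 on days 0, 7 and 14. The 2 clones had 5.79 and 5.66, 5.19 and 4.81, and 4.07 and 4.46. Its ranges overlapped between the cell types on every day. miR-93, with the same seed, had 7.34 and 7.42, 6.47 and 6.35, and 6.15 and 6.80 in Saos-2. In Sa/CD99 it had 7.56 and 7.26, 6.59 and 6.62, and 6.00 and 6.47. It overlapped on days 0 and 14, and on day 7 both clones lay above both Saos-2 arrays, as they did for 9 of the 100 miRNAs detected on all arrays. miR-25, a repressor of BCL2L11, had 6.75 and 7.47, 6.05 and 6.69, and 5.86 and 7.42 in Saos-2, and 6.85 and 6.75, 6.27 and 6.11, and 5.64 and 6.00 in Sa/CD99. Its ranges overlapped on every day.

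**Figure D1:**
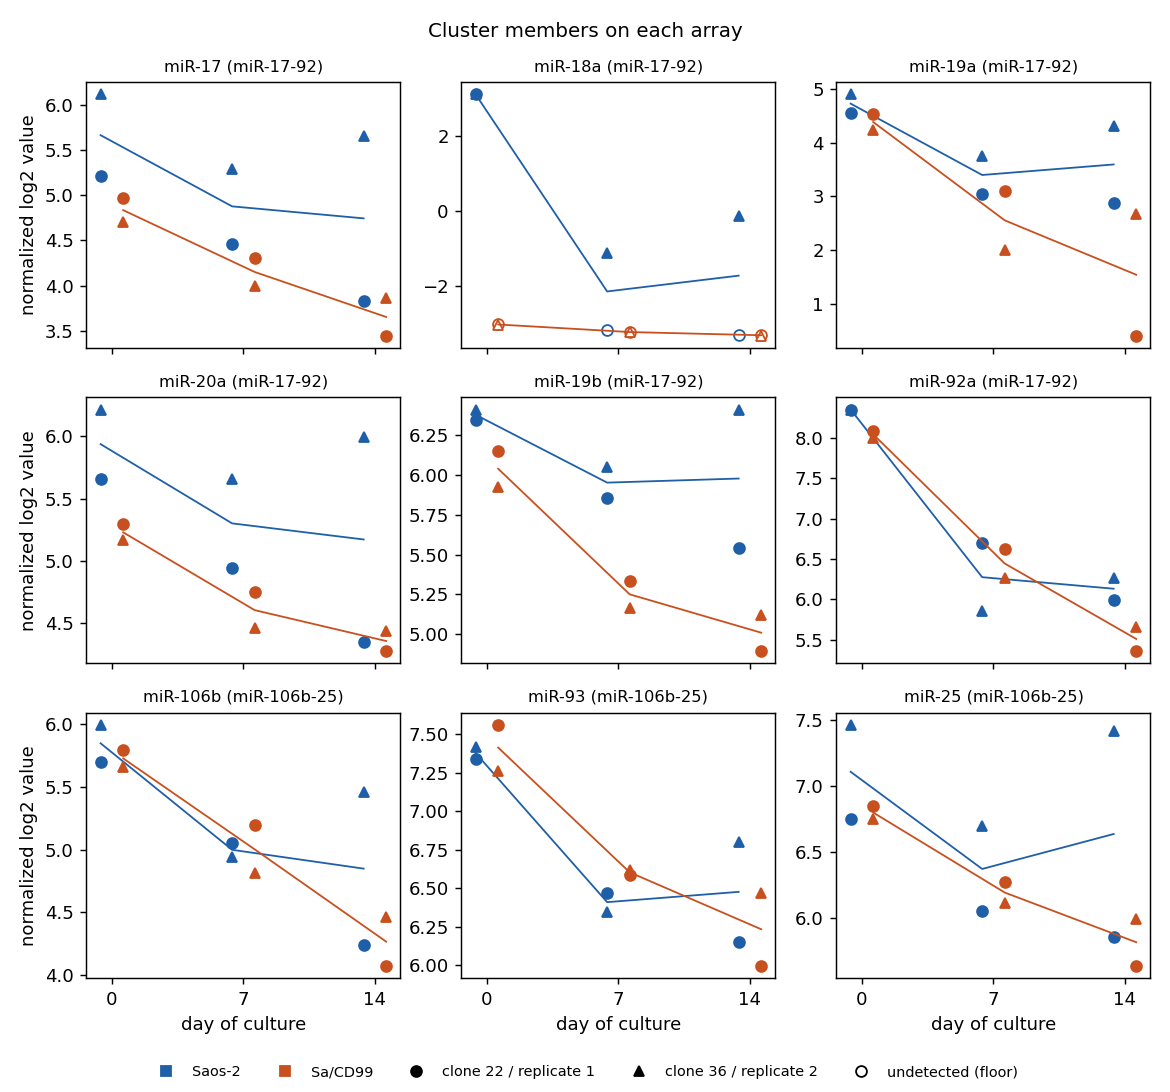
Normalized log2 value of each of the 9 members (vertical axis, scaled separately in each panel) against the day of culture, with 1 point per array, lines through the group means of 2 arrays, and open points for arrays on which the miRNA was not detected and stands at the floor. miR-92a lies at 7.99 or above on all 4 day 0 arrays and at 6.69 or below on all later ones, and miR-18a stays at the floor on all 6 Sa/CD99 arrays.

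The spread between replicate arrays was itself shared by the members. On day 14, Saos-2 replicate 2 lay above replicate 1 for all 8 members detected on all arrays, by 0.27 to 1.83 and with a median of 1.32, while the median difference of the 100 miRNAs detected on all arrays was 0.06. On day 0 the same replicate was above for 7 of the 8 members, by a median of 0.32, and on day 7 for 5 of 8, by 0.42, where the medians of the 100 miRNAs were -0.02 and -0.36. The 2 clones differed less from each other, by a median of -0.18 on day 0, -0.30 on day 7 and 0.37 on day 14 for clone 36 minus clone 22, where the 100 miRNAs had 0.00, -0.24 and 0.16. Comparisons with Saos-2 on day 14 therefore rest on arrays that stood far apart for these members.

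miR-18a, which represses SMAD4 and thereby TGF-beta signaling, differed between the cell types in detection. It was detected on both Saos-2 day 0 arrays, with log2 values of 3.11 and 3.11, and on replicate 2 on day 7, at -1.12, and on day 14, at -0.14. It was not detected on replicate 1 on those days or on any of the 6 Sa/CD99 arrays. It was the only 1 of 9 members called on day 0 at the thresholds of the methods, p of at most 0.01 and a fold change of at least 1.4, where 2.74% of the 219 tested miRNAs were called. It entered the test only through Saos-2 day 0, where it was detected on both arrays, and the fit set it against arrays at the floor, so its calls are counted here with no p and support no difference. With the same arrays relabelled and normalized again its day 0 difference was -0.69 ± 0.43 (SE) and was not called (limma adjusted p = 0.789). Its day 0 values were then 2.15 on clone 22 and 0.65 on clone 36, against 2.07 and 2.10 on Saos-2 replicates 1 and 2. The array of clone 22, on which miR-18a was not detected, thus lay above both Saos-2 arrays. In cultures measured in bulk, fewer cells holding a miRNA and less of it per cell cannot be told apart. Its unscaled scanner signal on Saos-2 replicate 2 was 5.74, 4.88 and 7.24 on days 0, 7 and 14, and on replicate 1 it was 3.57 on day 0 and at the lower limit of 0.1 afterwards. The normalized values of replicate 2 were thus much lower after day 0 while the unscaled signal stayed in the same range. With the arrays as filed, miR-18a was detected on 3 arrays of Sa/CD99 and 1 of Saos-2, the reverse order. The share of all miRNAs detected in only 1 cell type is not given here.

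The comparison of Sa/CD99 with Saos-2 sets transfected, neomycin-selected clones against the untransfected line, before and during osteogenic culture. No clone with an empty vector was among the samples. CD99, transfection, drug selection and clonal origin therefore cannot be told apart. On day 0, 5 of the 8 members detected on all arrays lay lower on both Sa/CD99 arrays than on both Saos-2 arrays, and all 5 belong to miR-17-92, where 20% of the 100 miRNAs detected on all arrays did so. On day 7 this held for 3 of 8, miR-17, miR-20a and miR-19b, against 15% of the 100. On day 14 it held for 3 of 8, miR-19a, miR-19b and miR-92a, against 47%. No member was called on day 7 or on day 14, where 3.2% and 9.13% of all tested miRNAs were called. The day 14 values nearest to the thresholds were a log2 fold change of -2.05 ± 0.80 (SE) for miR-19a (limma adjusted p = 0.212) and -0.97 ± 0.36 for miR-19b (limma adjusted p = 0.201). The median of the 100 miRNAs detected on all arrays was itself shifted by -0.49 on day 14, by 0.06 on day 0 and by 0.06 on day 7, while the median over all tested miRNAs on day 14 was -0.00087. Leaving out Saos-2 day 14 replicate 1 or Sa/CD99 day 14 clone 36 brought calls among the members on day 14. Each refit has a lone array in a group, and the share of all tested miRNAs called in it is not given here. With Saos-2 day 14 replicate 2 left out, the signs of miR-20a, miR-106b and miR-93 turned on day 14.

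Over all days, at an adjusted p of at most 0.05, 1 member was called, miR-18a with its floor values, where 2.74% of all tested miRNAs were called. A replicate block took this count to 0, and leaving out any 1 Sa/CD99 array or Saos-2 day 0 replicate 2 did so too. Without Saos-2 day 14 replicate 1 the count rose, with miR-17, miR-20a and miR-19b also called. The share of all tested miRNAs called in that refit, with a lone array in the group, is not given here. The 5 members of miR-17-92 detected on all arrays had a median log2 fold change of -0.74 and the 3 of miR-106b-25 one of -0.23, where that of all tested miRNAs was 0.10 and that of the 100 detected on all arrays -0.09. miR-19b had -0.67 ± 0.21 (SE), with 6 arrays a cell type (limma adjusted p = 0.188). miR-17 had -0.88 ± 0.37, miR-19a -1.08 ± 0.46 and miR-20a -0.74 ± 0.32, each with an adjusted p of 0.343 from limma. This fit treats the arrays of different days as independent. With the replicate block the limma adjusted p was 0.308 for miR-19b, 0.473 for miR-17, 0.488 for miR-19a and 0.477 for miR-20a. miR-92a had -0.25 ± 0.21, miR-106b -0.23 ± 0.25 and miR-25 -0.44 ± 0.31, and the 95% interval for miR-93 ran from -0.46 to 0.46. With the arrays as filed all 9 members lay higher in Sa/CD99 over all days, and miR-92a at 1.68 ± 0.50, miR-20a at 1.07 ± 0.36 and miR-106b at 1.01 ± 0.29 were called (limma adjusted p = 0.0292, 0.0417 and 0.0282), where 45.1% of the 213 miRNAs tested in that record were called. In that record the slide and the cell type cannot be told apart, which by the labels of the table holds for day 7 only. The direction between the cell types therefore depends on which record is followed.

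**Figure D2:**
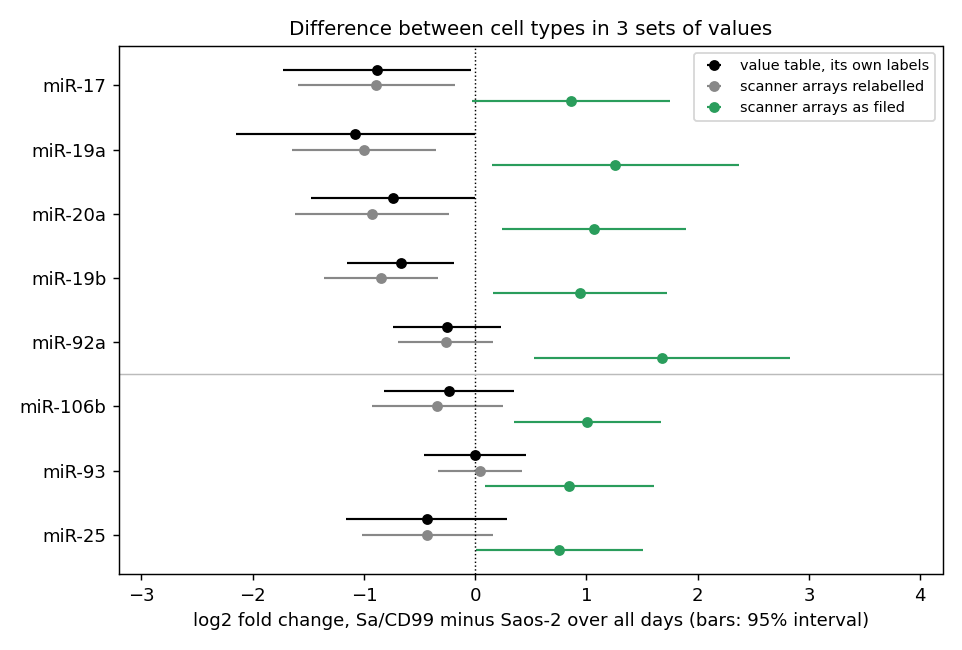
Log2 fold change of Sa/CD99 minus Saos-2 over all days (horizontal axis) for the 8 members detected on all arrays, with points for the limma estimates and bars for their 95% intervals, from the deposited table by its own labels (black), from the scanner arrays relabelled to match the table (grey) and from the scanner arrays as filed (green). Black and grey points lie together, at or below about 0, and all green points lie above 0.

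The balance between the clusters was also set within each array, which removes whatever scales a whole array. The mean log2 value of the 5 miR-17-92 members detected on all arrays minus that of the 3 miR-106b-25 members was read only as a difference between arrays, since levels of different probes are not comparable. It was -0.57 and -0.56 on Saos-2 day 0, -0.86 and -0.67 on day 7, and -0.90 and -0.83 on day 14. In Sa/CD99 it was -0.93 and -0.95, then -1.19 and -1.47, then -1.56 and -1.29. All 6 Sa/CD99 arrays lay below all 6 Saos-2 arrays, with means of -1.23 ± 0.26 (SD over 6 arrays) and -0.73 ± 0.15 (SD over 6 arrays). The 6 arrays of a cell type are the same clones or replicate numbers on each day, so they are not independent. Their SD mixes the spread between days with that between replicates. Of the 100 single miRNAs, 0% separated the 12 arrays by cell type. Their values carry the fall between days, which a difference within an array removes in part, so that share is no background for it. A difference of means is also not a single miRNA. The quantity was chosen with values of these data known, so no test is given. The arrays also stood apart with miR-92a left out and with the relabelled scanner arrays. As filed they overlapped, with means of -0.69 for Sa/CD99 and -0.98 for Saos-2. The narrower contrast of members with 1 seed, miR-17 and miR-20a minus miR-106b and miR-93, ran from -1.55 to -1.17 in Sa/CD99 and from -1.11 to -0.17 in Saos-2. These ranges stood apart in the table and overlapped with the relabelled scanner arrays.

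**Figure D3:**
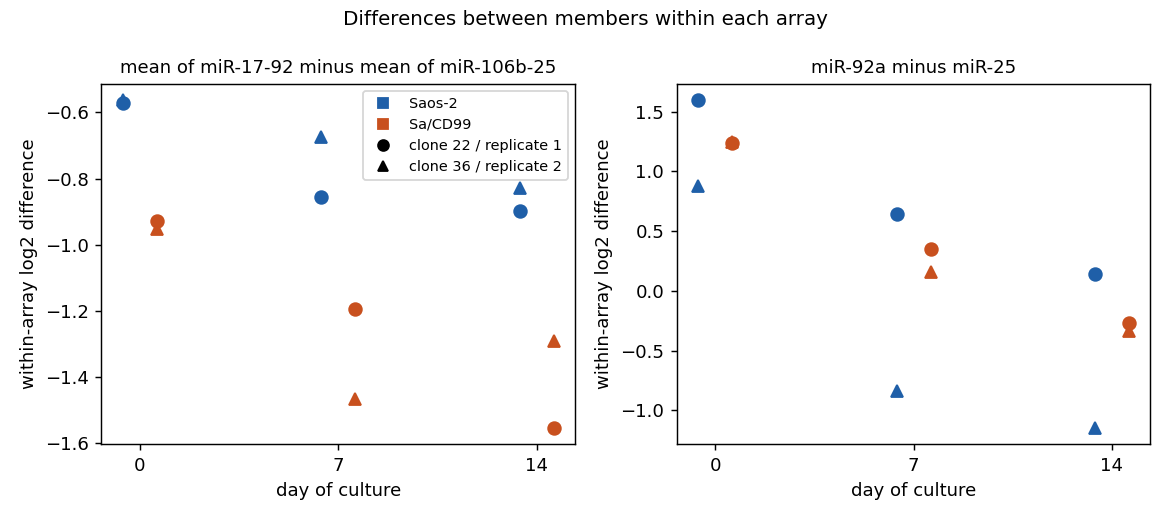
Within-array log2 differences (vertical axis) against the day of culture, 1 point per array: the mean of the 5 detected miR-17-92 members minus the mean of the 3 miR-106b-25 members (left), and miR-92a minus miR-25 (right). On the left the 6 Sa/CD99 points lie between -1.56 and -0.93 and the 6 Saos-2 points between -0.90 and -0.56. On the right the means fall from 1.24 on day 0 in both cell types to -0.50 in Saos-2 and -0.30 in Sa/CD99 on day 14, and the 2 Saos-2 day 14 arrays lie at 0.14 and -1.15.

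The comparisons between days ask how the members changed from basal to osteogenic culture. By the labels of the table, the day 0 and day 14 arrays lay on different slides, and the medium differed. Day, slide and medium therefore cannot be told apart between them. Most miRNAs detected on all arrays had lower normalized values on day 14 than on day 0, 87 of the 100 in Saos-2 and 89 in Sa/CD99, while the number of detected miRNAs and the total signal were higher. The median change of the 100 miRNAs detected on all arrays from day 0 to day 14 was -1.15 in Saos-2 and -1.57 in Sa/CD99, and each member's change is given beside it. Over all 219 tested miRNAs, which include those detected on part of the arrays, the medians were -0.47 and -0.64, and 63 were called higher against 59 lower in Saos-2 and 81 against 82 in Sa/CD99.

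In Saos-2, 2 of 9 members were called lower on day 14 than on day 0, as were 26.9% of the tested miRNAs. miR-92a fell by 2.21 ± 0.37 on the log2 scale (SE, limma adjusted p = 0.00176), which was 1.06 further down than the median of the 100 miRNAs. The other was miR-18a, which entered the test only through day 0 and had 1 later array of each day at the floor, so its call supports no fall. From day 0 to day 7 the same 2 members were called lower, as were 15.1% of tested miRNAs, and miR-92a fell by 2.07 ± 0.37 (limma adjusted p = 0.00249). From day 7 to day 14 none of the 9 was called, as was 0% of all tested miRNAs, 19 of which had an unadjusted p under 0.05. The other 7 members had changes from day 0 to day 14 of -0.40 to -1.13. Leaving out Saos-2 day 14 replicate 2 raised the count of members called on day 14 against day 0. That refit has a lone array in the group, and the share of all tested miRNAs called in it is not given here.

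In Sa/CD99, 5 of 9 members were called lower on day 14 than on day 0, as were 37.4% of all tested miRNAs, and miR-18a, among the 9, was undetected on all these arrays. With each array centred on the median of the 100 miRNAs, 1 of the 5 calls was left, miR-92a at -1.41 (limma adjusted p = 0.00592), and miR-19b turned to 0.0918. That fit called 118 of the 219 tested miRNAs in either direction. In Saos-2 miR-92a then stood at -1.48 (limma adjusted p = 0.00731), where 97 of the 219 were called. miR-92a fell by 2.53 ± 0.37 (limma adjusted p = 0.000587) and miR-19a by 2.84 ± 0.80 (limma adjusted p = 0.0129), which placed them 0.96 and 1.27 further down than the median of the 100 miRNAs. miR-106b fell by 1.46 ± 0.44 (limma adjusted p = 0.0159), miR-93 by 1.18 ± 0.34 (limma adjusted p = 0.0143) and miR-19b by 1.03 ± 0.36 (limma adjusted p = 0.0302), all less than the median of the 100 miRNAs detected on all arrays and more than that of all tested miRNAs. miR-17, miR-20a and miR-25 had changes of -1.18, -0.87 and -0.98 that did not pass the test. With the clone as a block 7 members were called, miR-17 and miR-25 among them (limma adjusted p = 0.0316 and 0.0433). In that fit 176 of the 219 tested miRNAs were called, in either direction. From day 0 to day 7, 1 member was called lower, miR-92a with a fall of 1.60 ± 0.37 (limma adjusted p = 0.011), as were 11% of tested miRNAs. miR-19a had a change of -1.83 ± 0.80 that was not called (limma adjusted p = 0.123). Its day 7 values lay below both day 0 values, as did those of 79% of the 100 miRNAs. The miR-92a call was lost without either day 0 array or without clone 36 on day 7. From day 7 to day 14 none was called lower, as were 4.57% of tested miRNAs, and miR-92a had a change of -0.93 ± 0.37 that was not called (limma adjusted p = 0.107). Its day 14 values lay below both day 7 values, as did those of 68% of the 100 miRNAs, and for day 14 against day 0 that share was 88%. The count from day 0 to day 14 was 1 without the day 0 or the day 14 array of clone 22, where miR-19a, miR-19b, miR-106b and miR-93 lost their calls, and 3 without the day 0 array of clone 36. miR-92a kept its call from day 0 to day 14 in both cell types whichever 1 array was left out.

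**Figure D4:**
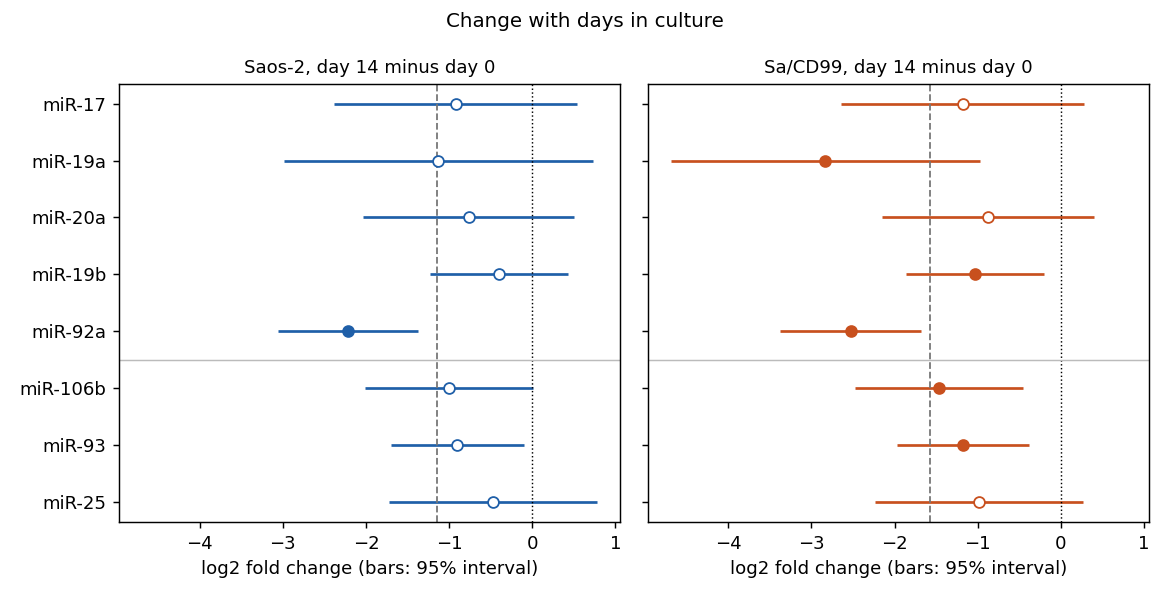
Log2 fold change from day 0 to day 14 (horizontal axis) in Saos-2 (left) and Sa/CD99 (right) for the 8 members detected on all arrays, with limma estimates, 95% intervals as bars, filled points for an adjusted p of at most 0.05, a dotted line at 0 and a dashed line at the median change of the 100 miRNAs detected on all arrays. miR-92a lies left of the dashed line in both panels, at -2.21 and -2.53, and miR-19a in Sa/CD99 only, at -2.84 against a median of -1.57.

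The unscaled scanner signal, relabelled to match the table, bears on this shift. For miR-92a it was 193 and 242 on the Saos-2 day 0 arrays, 78.8 and 116 on day 7, and 73.1 and 171 on day 14. In Sa/CD99 it was 168 and 142, then 118 and 88.1, then 58.5 and 86.8. All 8 later arrays but Saos-2 day 14 replicate 2 lay below all 4 day 0 arrays, although the arrays' total signal was higher after day 0. For miR-17 the unscaled signal rose above its day 0 values, from 16.0 and 13.1 to 19.0 and 27.4 in Sa/CD99 by day 14, and in Saos-2 it was 20.8 and 58.8 on day 0 and 19.1 and 103 on day 14. For miR-93 it was 113 and 89.6 on day 0 and 84.0 and 146 on day 14 in Sa/CD99, with overlapping ranges. Without scaling 0 members were called from day 0 to day 14 in either cell type, and of the 8 detected on all arrays 7 in Saos-2 and 6 in Sa/CD99 had changes above 0. The within-array difference of miR-92a minus miR-25, which a constant scaling of an array does not move, went from 1.24 on day 0 to -0.50 on day 14 in Saos-2 and from 1.24 to -0.30 in Sa/CD99 (means of 2 arrays). The Saos-2 day 14 mean spans 0.14 on replicate 1 and -1.15 on replicate 2, against 1.60 and 0.88 on day 0. With the arrays as filed, the change of miR-92a from day 0 to day 14 was 0.69 ± 0.87 (SE) in Saos-2 and 0.78 ± 0.87 in Sa/CD99, and neither was called (limma adjusted p = 0.95 and 0.87).

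The change over days was also compared between the cell types. None of the members passed the interaction test at an adjusted p of at most 0.05, where 1.83% of tested miRNAs did. The limma adjusted p of miR-19a and miR-92a was 0.883, and no smaller one was found among the 8 members detected on all arrays. The larger fall of miR-19a in Sa/CD99 is therefore not shown to differ from that in Saos-2.

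The relatives of the members were mostly not detected. All 11 passenger strands of the member hairpins, the arms that are usually degraded, were in the table, and 1 of them, miR-106b*, was detected on any array, on Saos-2 replicate 2 on days 0 and 7. The miR-106a-363 cluster, a paralog of miR-17-92 on the X chromosome, was represented by 3 of its 4 listed guide strands, since miR-106a was not analysed here. Of these, miR-20b was detected on 6 arrays, all 3 of Saos-2 replicate 2, Saos-2 day 0 replicate 1, and clone 36 on days 0 and 14, and it was called in no comparison. miR-18b, which differs from miR-18a at 1 of 23 bases, was detected on Saos-2 replicate 2 on days 0 and 14, and miR-363 on none. Of 5 other miRNAs with a member's seed, only miR-92b was detected, on the 4 day 0 arrays, with log2 values of 2.05 and 1.36 in Saos-2 and 2.39 and 2.10 in Sa/CD99. It was on no later array. Its unscaled signal on the day 0 arrays was 1.61 and 2.38 in Saos-2 and 1.38 and 1.79 in Sa/CD99, near the 1.4 at which miR-106b* was detected on Saos-2 day 7 replicate 2, so no fold is given. It entered the test only through the day 0 arrays, and its calls against later days support no fall. miR-92b shares the seed shown above with miR-92a and differs from it at 3 bases, and whether it adds to the day 0 signal of miR-92a was not tested.

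Pearson correlations of log2 values between members of miR-17-92 detected on all arrays were 0.60 to 0.99 over 10 pairs, those between the clusters 0.64 to 0.96 over 15 pairs, and those within miR-106b-25 0.75 to 0.93 over 3 pairs. With each array centred on the median of its detected miRNAs, the medians were 0.58, 0.54 and 0.60, and the lowest values -0.05, -0.03 and 0.45. After centring miR-92a had r = 0.16 with miR-17, 0.0094 with miR-20a, -0.05 with miR-19b and -0.03 with miR-25, against 0.57 with miR-19a, 0.56 with miR-106b and 0.49 with miR-93. miR-93 also had low values, 0.16 with miR-19b, 0.25 with miR-20a and 0.28 with miR-17. The miRNAs whose pattern was most like the mean of miR-17-92 over the 12 arrays were miR-130b (r = 0.96), miR-1274a (0.96), miR-103 (0.94), miR-361-5p (0.93) and miR-107 (0.93), where the median of the 92 candidates was 0.70. For miR-106b-25 they were miR-181b (0.95), miR-107 (0.93), miR-181a (0.93), miR-130b (0.92) and miR-1274a (0.92), with a median of 0.74. These correlations are descriptions, since the arrays share days, cell lines and the fall in normalized values.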

How the data were processed

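Total RNA was measured on 12 one-colour Cy3 Agilent human miRNA arrays, 2 for each of 6 groups. The authors' methods and processing notes name Feature Extraction and RMA, and per the file headers the version of Feature Extraction was 10.7.3.1. The deposited table holds normalized log2 values for 851 miRNAs, on which undetected miRNAs stand at the lowest value of their column. The deposited scanner files hold a linear intensity (the total gene signal) for each miRNA and 15024 spots per array that are not controls.

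The log2 values were fitted as 6 groups with limma 3.58.1 in R 4.3.3 over the 219 miRNAs for which some group had both of its arrays above detection, with Benjamini-Hochberg adjustment over all of them. Single days were called between cell types at p of at most 0.01 and a fold change of at least 1.4, other comparisons at an adjusted p of at most 0.05. The number of arrays limits the precision. The members and lists were chosen with earlier results of these data known. Deviations from the group means of arrays with the same clone or replicate number correlated at 0.41 to 0.63 over the 100 miRNAs detected on all arrays, so the numbers pair the arrays. Clone numbers come from the labels, while what the Saos-2 numbers share is not given. Scanner arrays were normalized again as filed and relabelled to match the table. Mature sequences and positions are from RefSeq.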

Additional observations from a re-analysis of the deposited data

How the results depend on the processing

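With 2 arrays a group, small differences cannot be resolved. The counts below are members called, miR-18a with its floor values included, and values are log2 fold changes. With the scanner arrays as filed the counts were 0 on day 0, 3 over all days, and 0 for Saos-2 days 7 and 14 and Sa/CD99 days 7 and 14 against day 0, and these signs turned. Between the cell types on day 0 the values were 0.85 for miR-17, 0.54 for miR-18a, 1.45 for miR-19a, 1.16 for miR-20a, 0.96 for miR-19b, 1.95 for miR-92a, 1.47 for miR-106b and 0.97 for miR-25. On day 7 they were 1.12 for miR-17, 0.79 for miR-18a, 1.5 for miR-19a, 1.33 for miR-20a, 1.28 for miR-19b and 0.66 for miR-25. On day 14 they were 0.60 for miR-17, 0.43 for miR-18a, 0.82 for miR-19a, 0.72 for miR-20a, 0.59 for miR-19b, 2.04 for miR-92a, 0.94 for miR-106b, 0.98 for miR-93 and 0.63 for miR-25. Over all days they were 0.86 for miR-17, 0.59 for miR-18a, 1.26 for miR-19a, 1.07 for miR-20a, 0.94 for miR-19b, 1.68 for miR-92a, 1.01 for miR-106b, 0.84 for miR-93 and 0.75 for miR-25. From day 0 to day 14 in Saos-2 they were 0.96 for miR-17, 0.0902 for miR-18a, 0.92 for miR-19a, 1.05 for miR-20a, 0.77 for miR-19b, 0.69 for miR-92a, 1.21 for miR-106b, 0.61 for miR-93 and 1.06 for miR-25. In Sa/CD99 they were 0.71 for miR-17, 0.28 for miR-19a, 0.61 for miR-20a, 0.40 for miR-19b, 0.78 for miR-92a, 0.68 for miR-106b, 0.44 for miR-93 and 0.72 for miR-25.

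With the unscaled total gene signal of the relabelled arrays, an alternative chosen after seeing the data, the counts were 0 on day 0, over all days, and on days 7 and 14 against day 0 in both cell types. From day 0 to day 14 the values were 0.35 for miR-17, 0.43 for miR-19a, 0.45 for miR-20a, 0.66 for miR-19b, 0.26 for miR-106b, 0.19 for miR-93 and 0.49 for miR-25 in Saos-2. In Sa/CD99 they were 0.66 for miR-17, 0.70 for miR-20a, 0.58 for miR-19b, 0.23 for miR-106b, 0.14 for miR-93 and 0.48 for miR-25. Between the cell types miR-106b was at -0.27 on day 7 and miR-93 at -0.22 on day 0. With that signal set at the 75th percentile the counts were 0 over all days, 1 on each of days 7 and 14 against day 0 in Saos-2 and 1 on day 14 against day 0 in Sa/CD99. miR-17 and miR-20a were then at 0.0116 and 0.0557 in Sa/CD99 from day 0 to day 14, miR-19b at 0.16 in Saos-2, miR-106b at -0.20 on day 7 and miR-93 at 0.13 over all days.

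With columns centred on the miRNAs detected on all arrays, 1 member was called from day 0 to day 14 in Sa/CD99, where miR-20a was at 0.25, miR-19b at 0.0918 and miR-25 at 0.14. In Saos-2 miR-19b was then at 0.33 and miR-25 at 0.26, and between the cell types miR-106b was at -0.0313 on day 7 and miR-93 at 0.15 on day 14 and 0.11 over all days. With the relabelled arrays normalized by RMA the counts were 0 on day 0, 0 over all days, 4 and 3 on day 7 against day 0 in Saos-2 and Sa/CD99 and 1 on day 14 against day 7 in Sa/CD99. Without background correction and with normexp they were 0 on day 0, 0 over all days and 2 on day 7 against day 0 in Sa/CD99. In these 3 settings miR-106b was at -0.11, -0.0617 and -0.0243 on day 7 and miR-93 at 0.0417, 0.0172 and 0.0121 over all days. Quantile normalization of all rows gave 1 member in the interaction and placed miR-93 at 0.0182 over all days.

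Without a filter on detection the counts were 1 on day 14 and 0 over all days between the cell types, 4 from day 0 to day 14 in Saos-2 and 3 in Sa/CD99 from day 0 to day 7, and 760 in place of 163 of all miRNAs were called in Sa/CD99 on day 14 against day 0. With miRNAs detected on all 12 arrays, which leaves out miR-18a, 0 were called on day 0 and over all days. A fit on only the arrays compared gave 3 in Sa/CD99 from day 0 to day 7, and gives no value over all days or for the interaction. The replicate block took the count over all days from 1 to 0, and no other count of members moved by over 1.5 times under it. The slide as a random block could not be fitted, as each group lies on 1 slide. Over all tested miRNAs the count over all days was 96 as filed and 6 in the table. For settings where no value shows the cause, the cause was not tested.

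With 1 array left out, the lone array of its group is assumed to vary like the others. The shares of all tested miRNAs called in these fits are not given here, so the counts are no result about the members alone. The counts then ran from 0 to 4 on day 14 and from 0 to 4 over all days, with 4 in both without Saos-2 day 14 replicate 1. The count over all days was 0 without any 1 Sa/CD99 array or without Saos-2 day 0 replicate 2. It ran from 2 to 6 from day 0 to day 14 in Saos-2, from 1 to 4 in Sa/CD99, and from 0 to 1 in the interaction, with 1 without either Saos-2 day 14 array. It ran from 0 to 1 from day 0 to day 7 in Sa/CD99, with 0 without either day 0 array or without clone 36 on day 7. Signs turned for members with small differences. miR-20a ran from -1.64 to 0.0075 on day 14 and from -1.59 to 0.0578 from day 0 to day 14 in Saos-2, where miR-19b ran from -0.84 to 0.0331 and miR-25 from -1.25 to 0.31. miR-92a ran from -0.25 to 0.59 on day 7. miR-106b ran from -0.27 to 0.0286 on day 0, from -0.19 to 0.20 on day 7 and from -1.19 to 0.0264 on day 14. miR-93 ran from -0.11 to 0.18 on day 0, from -0.57 to 0.0806 on day 14 and from -0.11 to 0.10 over all days. miR-25 ran from -0.67 to 0.049 on day 0 and from -0.50 to 0.14 on day 7. Of the 904 values of single members under an alternative, 724 kept their direction and their side of the threshold.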
